A study of Mus musculus with 12 samples.

Results

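Group 2 innate lymphoid cells (ILC2s) labelled Rag1 knockout were compared with ILC2s labelled wild type (WT) 20 weeks after bone marrow transplant, in 6 of the 12 RNA-seq libraries of the series, 3 per genotype. The libraries were chosen by their titles, and only genes on autosomes were tested. Per the labels, CD45.1 congenic mice were given 950 cGy of radiation and then marrow mixed in equal parts from CD45.2 Rag1-/- donors and CD90.1 WT donors, on the C57BL6 strain. Both genotypes therefore developed in irradiated hosts that also held cells of the other donor, and the knockout-labelled cells carried CD90.2. All hosts received IL-33 daily for 7 days, 30 ng into each cheek and 240 ng into the peritoneum, before the cells were sorted from skin-draining lymph nodes. The other 6 libraries, 3 per genotype, were labelled as the same design 8 weeks after transplant. The sample titles give 20 weeks for the later time, while the series' design text gives 12 weeks. Whether replicates were different mice is not said in the labels, so p-values reflect only the variation among these samples, part of which may be technical.

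ILC2s are tissue lymphocytes that release IL-5, IL-13 and other type 2 cytokines when IL-33 and related alarm signals reach them, with no antigen receptor of their own. Rag1 and Rag2 form the recombinase that cuts and joins antigen receptor gene segments in developing T and B cells. Mature ILC2s do not need this enzyme to form, but part of the lineage is known to have expressed Rag1 earlier in development.

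The 6 libraries held 13214097 to 32529806 estimated reads, and WT replicate 3 was the shallowest. Correlations between replicates were 0.946 to 0.963 within WT and 0.965 to 0.973 within knockout-labelled libraries. WT replicate 3 stood apart on the first principal component (32.2% of variance) and WT replicate 1 on the second (22.5%). The file headers record 24 processing threads for all 3 knockout-labelled libraries and WT replicate 3, and 8 threads for WT replicates 1 and 2. Genes of the Y chromosome took 0.0783% to 0.0821% of reads in WT and 0.0245% to 0.0284% in knockout-labelled libraries. Levels below are counts-per-million (CPM) values over autosomal reads, after scaling, and log2 fold changes are knockout-labelled over WT.

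Rag1 itself (ENSMUSG00000061311, chromosome 2, 101638282 to 101649501) ran against the label. It had 0 estimated reads in all 3 WT libraries, and 13, 18 and 11 in the knockout-labelled ones. Its level in these was 0.425, 0.603 and 0.536 CPM, at least 3.21-fold higher than a floor of 3 counts per library in WT, and the difference did not pass the test (adjusted p = 0.223, edgeR's quasi-likelihood test with Benjamini-Hochberg adjustment). The estimates span whole transcripts, so these reads cannot be placed inside or outside the deleted part, and the direction of every fold change below rests on the labels. Rag2, the partner subunit, was at 1.32, 2.32 and 3.76 CPM in WT and 2.22, 2.34 and 2.58 CPM in knockout-labelled cells, with overlapping groups.

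The sorted cells carried the ILC2 programme in every library. The transcription factor gene Gata3 was at 1017, 1057 and 629 CPM in WT and 977, 1222 and 1084 CPM in knockout-labelled cells. Klrg1, an inhibitory receptor gene typical of these cells, lay between 1533 and 1749 CPM in all 6 libraries, and the IL-33 receptor gene Il1rl1 between 322.6 and 381 CPM. The groups overlapped for all 3 genes. Of the defining markers of other cell types, Il22, S100a8, S100a9, Ly6g and Lyve1 were at 0 in all 6 libraries, and Ncr1, Eomes, Il17a, Prg2 and Hbb-bs were at or below 0.341 CPM.

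Of 13478 autosomal genes tested, 11 (0.0816%) were called at an adjusted p under 0.05. Of these, 5 (0.0371%) rose in knockout-labelled cells, namely Thy1, Nxpe4, Me3, Hspa8 and the pseudogene Gm7658. The other 6 (0.0445%) fell, namely Jag1, Ubash3b, Fam219b, Igkc, Igkj5 and the pseudogene Gm15459. At an unadjusted p under 0.05 there were 349 higher genes (2.59%) and 371 lower genes (2.75%), in all 5.34% of those tested. The groups did not overlap for all 11 called genes, against 11.5% of all genes tested, 5.76% higher and 5.71% lower. Against a minimum change of 1.5-fold, edgeR's glmTreat called 0 genes, while a test against no change with limma-voom called 14 and with DESeq2 73 (0.542%).

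The number of calls depended on single libraries. Leaving out 1 library at a time left 0 to 7 called genes: 0 without knockout-labelled replicate 2 or 3, 1 without knockout-labelled replicate 1 or WT replicate 2, 4 without WT replicate 1 and 7 without WT replicate 3. With 1 WT library against 3 knockout-labelled ones, the libraries of 24 threads alone gave 25 calls, of which 1 was among the 11. Libraries of 8 threads hold WT only. A fit with a block for the replicate number, which the genotypes share, called 0 genes. All 11 genes kept their direction in each of these fits.

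**Figure D1:**
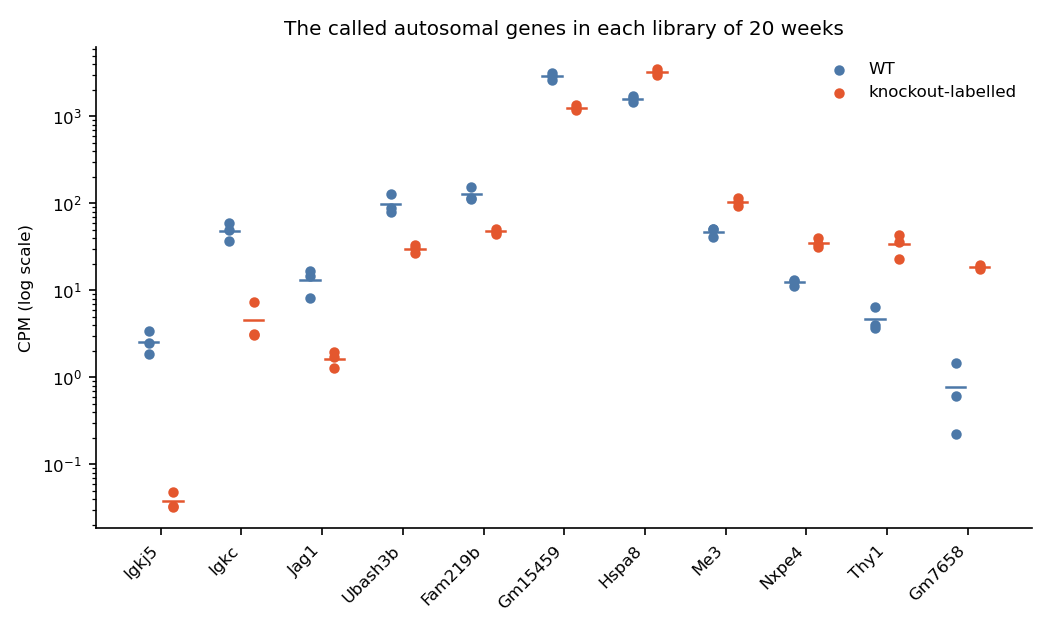
CPM on a log scale of the 11 called autosomal genes in the 3 WT libraries (blue) and the 3 knockout-labelled libraries (red) of 20 weeks, ordered by log2 fold change; each point is 1 library and each bar the group mean. The points of the 2 groups do not overlap for any of the 11 genes, and the distance is widest for Igkj5, where each knockout-labelled library held 1 read.

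Thy1 (ENSMUSG00000032011), which encodes the surface protein CD90, was at 3.68, 4.03 and 6.47 CPM in WT and 23.2, 36.0 and 43.3 CPM in knockout-labelled libraries. Its log2 fold change was 2.88 (SE 0.31, adjusted p = 0.0247, edgeR). CD90 is the protein whose allele the labels use to tell the donors apart. Ptprc, which encodes CD45, the other marker of origin, was at 1405, 1300 and 1492 CPM in WT and 1193, 1317 and 1249 CPM in knockout-labelled libraries, with overlapping groups and a log2 fold change of -0.16 (SE 0.11).

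Jag1 (ENSMUSG00000027276, chromosome 2, 137081456 to 137116644) encodes a ligand of Notch receptors, displayed on one cell to signal to its neighbour. It was at 8.09, 16.6 and 14.5 CPM in WT and 1.28, 1.71 and 1.95 CPM in knockout-labelled libraries (log2 fold change -2.99, SE 0.35, adjusted p = 0.0270, edgeR). Of 30 tested genes of the Notch pathway, Jag1 was the only member called. The ubiquitin ligase gene Mib1, which drives ligand uptake, was at 37.0, 42.3 and 41.1 CPM against 26.2, 35.6 and 27.9 CPM, with groups apart and an adjusted p of 0.886 in edgeR. The median log2 fold change of the pathway was -0.01, against 0.001 over all genes tested.

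Ubash3b (ENSMUSG00000032020, chromosome 9, 41011098 to 41161697) encodes a phosphatase that dampens signalling from antigen receptors. It was at 87.9, 129 and 80.4 CPM in WT and 30.3, 33.04 and 26.8 CPM in knockout-labelled libraries (log2 fold change -1.72, SE 0.20, adjusted p = 0.0270, edgeR). Me3 (ENSMUSG00000030621, chromosome 7, 89632392 to 89854359), a mitochondrial malic enzyme gene, rose from 50.3, 41.0 and 50.1 CPM to 92.1, 104 and 116 CPM (1.14, SE 0.14, adjusted p = 0.0400, edgeR). For both genes the lowest library of the higher group was well clear of the other group. Nxpe4 (ENSMUSG00000044229, chromosome 9, 48162023 to 48400025), a gene related to the neurexophilins, rose from 12.9, 13.1 and 11.2 CPM to 34.4, 31.7 and 40.2 CPM (1.51, SE 0.16). Fam219b (ENSMUSG00000032305, chromosome 9, 57537528 to 57543184) fell from 115.6, 154.6 and 111.5 CPM to 45.01, 51.1 and 46.8 CPM (-1.42, SE 0.15), and both had an adjusted p of 0.0247 in edgeR.

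Of the 11 called genes, 5 lie on chromosome 9, the chromosome of Thy1. Between gene midpoints, Hspa8 lies 3.24 Mb before Thy1 (44043384 to 44048579, GRCm38) and Ubash3b 2.96 Mb before it. Nxpe4 lies 4.24 Mb and Fam219b 13.49 Mb after it. Of 785 tested genes on chromosome 9, 76 (9.68%) had an unadjusted p under 0.05, against 2.42% to 7.47% on the other 18 autosomes and 5.34% over all. Of the 36 genes at an unadjusted p under 0.001, 12 were on chromosome 9. The donors differ by label in their CD90 allele, and its part in these values was not tested. Jag1 lies on chromosome 2, 35.46 Mb from Rag1.

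Hspa8 and Gm15459 were called in opposite directions and share most of their sequence. Hspa8 (ENSMUSG00000015656, chromosome 9, 40800984 to 40810087) encodes the constitutive chaperone HSC70, and Gm15459 (ENSMUSG00000100801, chromosome 5, 5781615 to 5783555) is a processed pseudogene. Of the 1922 distinct 20-base words of Gm15459, 94.8% also occur in Hspa8, and sailfish, the program that made these files, assigns reads by such words. The 90 bases of coding sequence from a single Hspa8 exon (chr9:40801991-40802080, plus strand) are shown beside the matching bases of Gm15459 (chr5:5783398-5783487, minus strand), from the GENCODE M21 transcripts on GRCm38, because they show how little separates the copies. Capitals mark the single base that differs, and 51 of the 71 words of this stretch are shared. The stretch was picked for having the most differing bases among the matched stretches compared.
Hspa8: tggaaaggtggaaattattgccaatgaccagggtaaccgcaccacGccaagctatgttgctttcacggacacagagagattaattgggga
Gm15459: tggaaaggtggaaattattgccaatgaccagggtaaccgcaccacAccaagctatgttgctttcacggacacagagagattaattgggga

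Hspa8 was at 1448, 1694 and 1612 CPM in WT and 3262, 3510 and 2999 CPM in knockout-labelled libraries, or 1.04 on the log2 scale (SE 0.12, adjusted p = 0.0270, edgeR). Gm15459 moved the other way, from 2945, 3177 and 2644 CPM to 1256, 1348 and 1179 CPM (-1.21, SE 0.12, adjusted p = 0.0247, edgeR). The sum of both was 4507 ± 323 CPM in WT and 4518 ± 340 CPM in knockout-labelled libraries (SD, n = 3 each). The sums overlapped, with a log2 ratio of 0.004 (exact two-sided permutation p = 1, where 0.1 is the smallest that 3 against 3 allow, so no difference could have passed 0.05). Because the copies share these words, the calls of both genes are reported as uncertain. With near-identical copies joined in the whole table, a setting chosen after seeing the data, Hspa8 was at -0.02 on the log2 scale (SE 0.11, adjusted p = 0.987, edgeR) and 8 genes were called.

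Gm7658 (ENSMUSG00000082935, chromosome 1, 21511933 to 21513056), a processed pseudogene of the translation factor subunit gene Eif3m, is a second uncertain call. It was at 0.221, 0.614 and 1.47 CPM in WT and 18.5, 17.7 and 19.5 CPM in knockout-labelled libraries (log2 fold change 4.76, SE 0.52, adjusted p = 0.0247, edgeR). Of its 1105 words, 73.3% occur in Eif3m, which lies on chromosome 2 at 104999656 to 105017080, 3.36 Mb from Rag1. Eif3m was at 250.4, 304 and 333 CPM in WT and 262, 255 and 288 CPM in knockout-labelled libraries, with overlapping groups. The sums were 296.5 ± 42.5 and 287 ± 18.4 CPM (SD, n = 3 each). The level of Gm7658 was smaller than the WT spread of these sums, so they do not show whether reads moved between the copies, and the call is reported as uncertain because of the shared words alone. The stretch below comes from 1 coding exon of Eif3m (chr2:105012851-105012940, minus strand) and the matching bases of Gm7658 (chr1:21512525-21512614, minus strand), from the same source. It was picked for having the most differing bases among the matched stretches compared. These 4 bases, in capitals, leave 20 of 71 words shared, against 73.3% over all words of Gm7658.
Eif3m: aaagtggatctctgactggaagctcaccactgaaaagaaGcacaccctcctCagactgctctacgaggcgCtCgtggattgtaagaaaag
Gm7658: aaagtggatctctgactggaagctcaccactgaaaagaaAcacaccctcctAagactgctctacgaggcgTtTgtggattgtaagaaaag

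**Figure D2:**
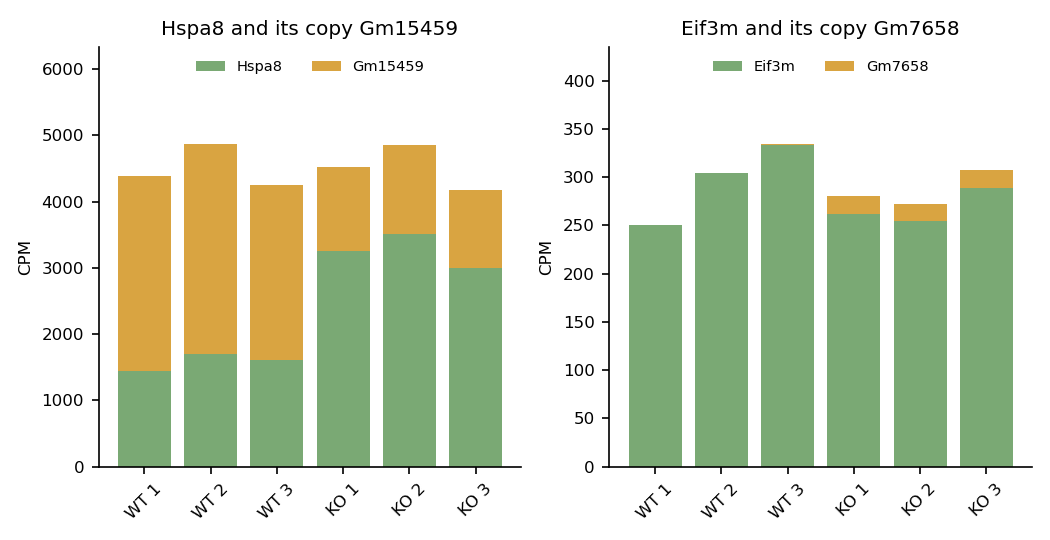
Stacked CPM of Hspa8 with Gm15459 (left) and of Eif3m with Gm7658 (right) in each WT and knockout-labelled (KO) library of 20 weeks; bar height is the sum of gene and copy. On the left the Gm15459 share is larger in all 3 WT libraries while the sums lie between 4178 and 4871 CPM in both groups, and on the right Gm7658 is a thin layer seen mainly in knockout-labelled libraries.

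Both called immunoglobulin segments fell in knockout-labelled cells. Igkc (ENSMUSG00000076609, chromosome 6, 70726435 to 70726966), the constant segment of the kappa light chain that B cells and plasma cells make, was at 59.1, 37.0 and 49.4 CPM in WT and 7.30, 3.05 and 3.17 CPM in knockout-labelled libraries (log2 fold change -3.42, SE 0.37, adjusted p = 0.0247, edgeR). Igkj5, a joining segment of 42 bases beside it on chromosome 6 (70723886 to 70723927), had 92, 42 and 30 reads in WT and 1 read in each knockout-labelled library. Its ratio of WT to knockout-labelled reads, at equal depth, was 70.8 (exact 95% interval 23.8 to 347, counting error only). Jchain, which links secreted antibodies, was at 17.98, 11.1 and 6.38 CPM in WT and 1.11, 0.502 and 2.00 CPM in knockout-labelled libraries, with groups apart and an adjusted p of 0.182 in edgeR. The variable segment Igkv4-61, for which close copies exist, was at 31.9, 14.3 and 0.409 CPM against 0, 0 and 0.146 CPM. So 2 WT libraries held nearly all of its reads, and it was not called (log2 fold change -8.51, SE 1.66, adjusted p = 0.307, edgeR). Its ratio of pooled reads at equal depth was 517 (exact 95% interval 177 to 2510). That interval covers counting error only and leaves out the spread between libraries.

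The defining B cell markers stayed low in both groups beside these segments. Cd79a, a signalling chain of the B cell receptor, was at 1.32, 1.71 and 3.11 CPM in WT and 0.818, 1.27 and 1.32 CPM in knockout-labelled libraries. Ms4a1, which encodes CD20, was at 1.66, 1.23 and 3.27 CPM against 0.949, 0.469 and 0.536 CPM. The groups were apart for both, lower with Igkc, and neither passed the test (adjusted p = 0.911 and 0.806, edgeR). Of 17 tested genes of the B and plasma cell list, 1 was called (Igkc), 16 had a negative log2 fold change and the median was -0.57. The list summed to 280 to 430.4 CPM in WT and 223 to 263 CPM in knockout-labelled libraries. Cd79b, which the list also holds, was at 94.7, 86.9 and 76.1 CPM in WT and 110.1, 117 and 108 CPM in knockout-labelled cells, the other direction (adjusted p = 0.806, edgeR). In these bulk samples fewer cells of a type and less RNA per cell cannot be told apart, and the part of other cells in the immunoglobulin calls was not tested.

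The libraries of 8 weeks, of the same design and not used for these calls, give a second reading. Of the 11 called genes, 10 could be tested there, 9 had the same sign and 8 also an unadjusted p under 0.05 in edgeR. Of all 12293 genes tested at both times, 52.5% had the same sign and 141 also an unadjusted p under 0.05 at 8 weeks. In either direction, 1.72% of all genes tested at 8 weeks had such a p. Log2 fold changes at 8 weeks were 2.40 for Thy1, 1.71 for Nxpe4, 1.67 for Me3, -3.38 for Jag1, -1.94 for Ubash3b and -2.42 for Fam219b. The copies did so as well, with 5.54 for Gm7658, -1.47 for Gm15459 and 0.59 for Hspa8, the last at an unadjusted p of 0.103 in edgeR. Igkc went the other way, at 8.33, 13.2 and 6.94 CPM in WT and 55.0, 163 and 2.13 CPM in knockout-labelled cells at that time, so that 2 of the 3 knockout-labelled libraries were far above WT. Within 8 weeks, edgeR called 5 genes in all (0.0402%), and 0 of the 11 were among them. The test of the difference between times called 0 of the 11 genes and 7 of all 13831 tested (0.0506%).

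Most autosomal genes were measured closely enough to bound their difference. The median size of the log2 fold change was 0.18, at a median SE of 0.23. For 8661 genes (64.3%) the 95% interval of the fold change lay wholly inside 2-fold in either direction, and for 4871 (36.1%) inside 1.5-fold. The bound followed the level: the share inside 2-fold was 0.414% of 1691 genes under 1 CPM, 32.2% of 3783 genes at 1 to 10 CPM, 91.7% of 5927 genes at 10 to 100 CPM and 96.3% of 2077 genes above 100 CPM. Fitted changes past 2-fold numbered 623 (4.62%), of which 315 were in genes under 1 CPM and 261 in genes at 1 to 10 CPM. Fitted without a low-count filter, the median size was 0.30, and with a covariate for the thread number it was 0.30 as well.

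**Figure D3:**
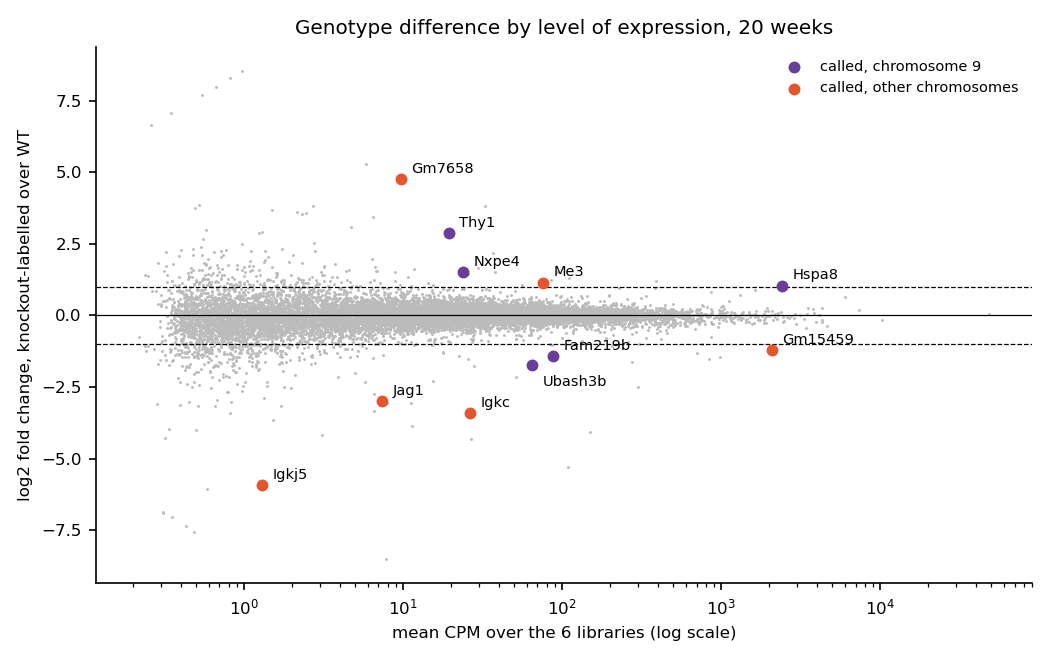
Log2 fold change of knockout-labelled over WT cells against mean CPM (log axis) for the 13478 autosomal genes tested; called genes are coloured by chromosome and dashed lines mark 2-fold. The grey cloud narrows with level, and the called genes spread from about 1 CPM (Igkj5) to over 2000 CPM (Hspa8 and Gm15459).

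Among large fitted differences without a call, some genes had groups that were apart and others had groups that overlapped. Tmprss13, a transmembrane protease gene on chromosome 9, was at 0, 0.351 and 0.655 CPM in WT and 13.1, 13.3 and 7.56 CPM in knockout-labelled libraries (log2 fold change 5.30, SE 0.78, adjusted p = 0.1, edgeR), and its log2 fold change at 8 weeks was 8.13. Rif1, which steers the repair of DNA double-strand breaks, was at 11, 22.3 and 6.22 CPM against 52.1, 57.2 and 71.0 CPM (2.17, SE 0.40, adjusted p = 0.223, edgeR), and its log2 fold change at 8 weeks was -0.001. Rbm44 was at 10.1, 9.43 and 15.1 CPM against 2.62, 2.11 and 0.293 CPM, and Dapk2, a death-associated kinase gene, at 4.01, 3.33 and 2.70 CPM against 0.687, 0.736 and 0.293 CPM. The groups did not overlap for these 4 genes, and DESeq2 called all 4. By contrast Gm17374, Gm10134, Usp2 and Hmga1b had log2 fold changes of -3.05 to -5.28 (unadjusted p under 0.01) but overlapping groups, with the highest level in WT replicate 3 each time. Most words of Hmga1b (95.2%) and Gm17374 (70.9%) also occur in other genes, so these values are uncertain. Gm10134, for example, was at 27.7, 61.8 and 761 CPM in WT and 9.55, 31.7 and 8.53 CPM in knockout-labelled libraries.

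Of 33 gene lists for pathways and cell functions, 4 held a called gene, each a single one: Ubash3b among antigen receptor signalling genes, Jag1 in the Notch pathway, Me3 among antioxidant enzymes and Hspa8 among heat shock proteins. The median log2 fold change of a list lay beyond 0.1 in size in 2 of 33, the cytosolic ribosomal proteins and the type 2 cytokines and effectors. That number was 3 to 11 with 1 library left out, 18 with the thread number as a covariate and 22 in the libraries of 24 threads alone. Over all genes tested the median was 0.001 with quartiles of -0.19 and 0.17. The members of all lists were chosen with earlier results of these data known. A list's share of low p-values, given below, is therefore a count and no test of the list.

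**Figure D4:**
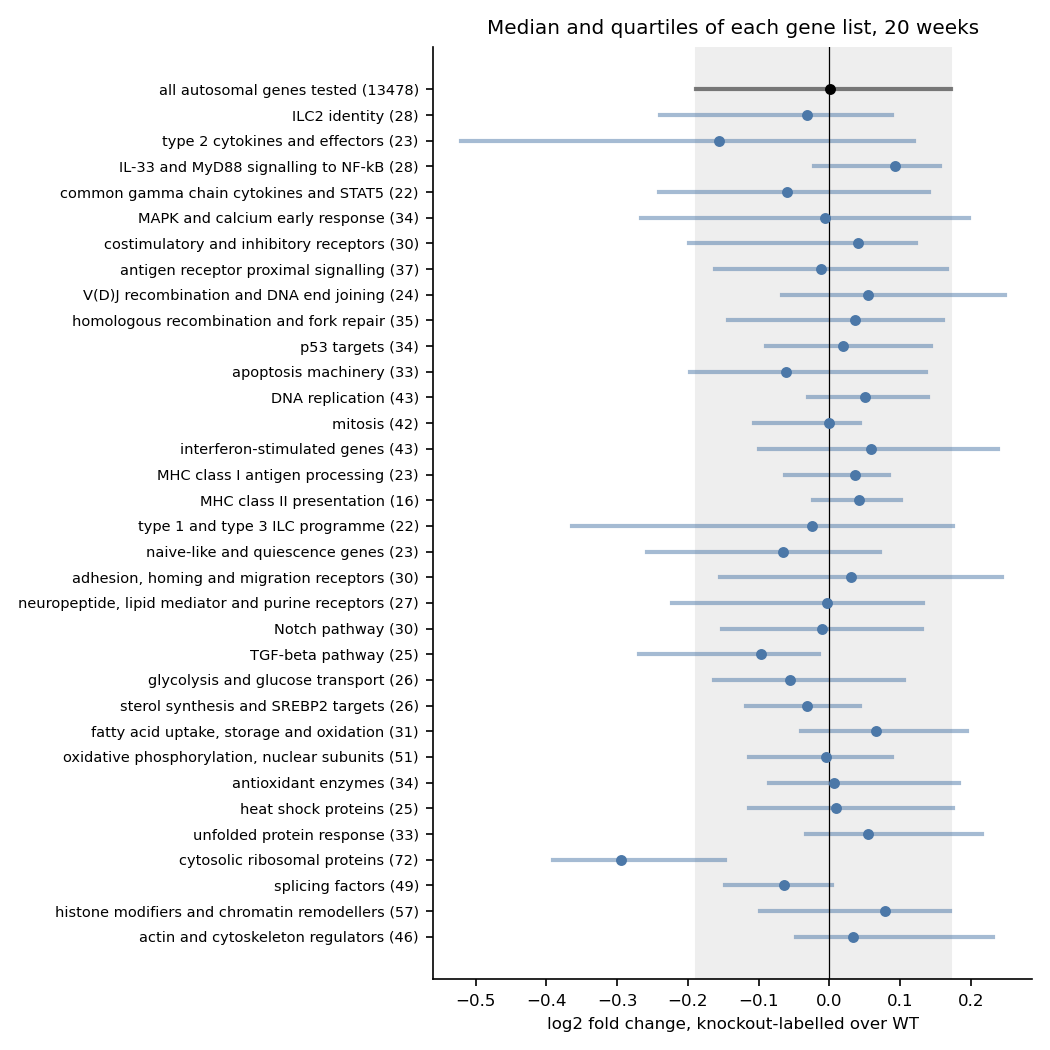
Median log2 fold change (points) and quartiles (lines) of the 33 pathway lists and of all autosomal genes tested (black, and grey band); numbers in brackets are tested genes. All medians but that of the cytosolic ribosomal proteins lie inside the quartiles of all genes.

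Among 28 genes of ILC2 identity, 0 were called, 4 had an unadjusted p under 0.05 (14.3%, against 5.34% of all genes) and the median was -0.03. The interval lay inside 2-fold for 21 of them. Ets1, a transcription factor gene used in early ILC development, was at 1075, 1289 and 1072 CPM in WT and 2620, 2087 and 1691 CPM in knockout-labelled cells (log2 fold change 0.90, SE 0.17, adjusted p = 0.306, edgeR). Ets1 lies on chromosome 9, and at 8 weeks it was at 170.6, 174 and 181 CPM in WT and 1161, 2028 and 5660 CPM in knockout-labelled cells (4.08, SE 0.60), also with groups apart. Il18r1, a chain of the IL-18 receptor, was at 61.2, 62.5 and 81.1 CPM against 36.9, 39.9 and 48.6 CPM (-0.71, SE 0.16, adjusted p = 0.560, edgeR). Itgae, which encodes the integrin chain CD103, was at 147.7, 110.6 and 162 CPM against 84.9, 58.2 and 91.6 CPM (-0.84, SE 0.20). Id2, the repressor needed by all innate lymphoid cells, was at 3285, 3837 and 4535 CPM against 2755, 3149 and 2796 CPM (-0.42, SE 0.14). The groups did not overlap for these 4 genes, and DESeq2 called Ets1, Il18r1 and Itgae.

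None of the core identity genes passed the test. Log2 fold changes were 0.28 (SE 0.20) for Gata3, -0.03 (SE 0.11) for Rora, the other factor that specifies the lineage, -0.02 (SE 0.11) for Il1rl1, 0.06 (SE 0.10) for Klrg1 and -0.10 (SE 0.14) for the costimulator Icos. For the IL-2 receptor chain gene Il2ra the value was -0.05 (SE 0.16). Il7r, the receptor chain for the survival cytokine IL-7, was at 929, 840 and 1050 CPM in WT and 831, 717.5 and 836 CPM in knockout-labelled cells. Its groups were just apart, and its log2 fold change of -0.24 (SE 0.13) had an adjusted p of 0.911 in edgeR.

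Type 2 cytokines and effectors had a median of -0.16 over 23 tested genes, with 0 called and 2 lower at an unadjusted p under 0.05. By library, the list's median deviation from the WT mean was 0.021, -0.083 and 0.165 in WT. It was -0.154, 0.007 and -0.06 in knockout-labelled libraries, so the groups overlapped. Over 18 alternative fits the list's median log2 fold change ran from -0.27 to -0.023. Il5, the cytokine that sustains eosinophils, was at 178, 160 and 159 CPM in WT and 201, 168 and 174 CPM in knockout-labelled cells (log2 fold change 0.13, SE 0.12). Il13 was at 11.5, 12.8 and 12.1 CPM against 10.9, 9.24 and 8.14 CPM (-0.36, SE 0.20), with groups apart and an adjusted p of 0.911 in edgeR. The growth factor genes Csf2 (0.02, SE 0.18) and Areg (0.52, SE 0.44) had overlapping groups, Areg at 1.01 to 3.01 CPM. Ccl22, a chemokine gene, had 15, 13 and 12 reads in WT and 0 in all knockout-labelled libraries, at least 6.10-fold lower against a floor of 3 counts per library (adjusted p = 0.187, edgeR). Tnfsf8, which encodes CD30 ligand, was at 13.97, 20.3 and 21.6 CPM against 13.8, 9.27 and 7.41 CPM. Summed over the list, the level was 1350 to 1428 CPM in WT and 1493 to 1517 CPM in knockout-labelled libraries, so the sum and the median differ in sign.

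Signalling downstream of IL-33 and of the growth cytokines showed no called gene. Of 28 IL-33 and NF-kB genes 0 had an unadjusted p under 0.05, and the median was 0.09. The shared receptor chain Il1rap was at 12.0, 16.8 and 16.2 CPM in WT and 25.3, 18.1 and 16.6 CPM in knockout-labelled cells, with overlapping groups. The common gamma chain and STAT5 list (22 genes, median -0.06) and the early response genes (34 genes, median -0.01) also held 0 at an unadjusted p under 0.05. Among 30 costimulatory and inhibitory receptors 1 did, Cd244a, a receptor of the SLAM family, at 11.2, 13.1 and 12.5 CPM against 19.5, 20.5 and 30.0 CPM (log2 fold change 0.93, SE 0.21, adjusted p = 0.548, edgeR).

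Antigen receptor signalling genes, which ILC2s transcribe without a receptor, had a median of -0.01 over 37 tested members. Besides Ubash3b, the kinase gene Lck was at 173, 154 and 169 CPM in WT and 131, 111 and 142 CPM in knockout-labelled cells (log2 fold change -0.37, SE 0.13). The phospholipase gene Plcg2 was at 19.6, 26.8 and 23.7 CPM against 31.0, 34.5 and 40.1 CPM (0.59, SE 0.17). Neither passed the test (adjusted p = 0.825 and 0.748, edgeR), although the groups were apart for both.

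Genes that repair or answer DNA breaks were measured because the recombinase makes such breaks. Of 24 genes of V(D)J recombination and end joining, 0 were called, 3 were higher at an unadjusted p under 0.05 and the median was 0.05. These 3 were Rag1, Rif1 and the ubiquitin ligase gene Rnf8, which was at 4.96, 6.75 and 5.32 CPM in WT and 7.00, 11.8 and 10.3 CPM in knockout-labelled cells. Homologous recombination genes (35, median 0.04) had 1 at that level. Of 34 p53 targets 0 were called and 4 had an unadjusted p under 0.05 (11.8%), 3 of them lower. Ccng1, a cyclin gene induced by p53, was at 108.5, 101 and 103 CPM against 76.7, 83.4 and 83.9 CPM (log2 fold change -0.36, SE 0.11, adjusted p = 0.748, edgeR).

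Mitosis was the pathway list with the largest share of members bounded inside 2-fold. All 42 tested mitosis genes had an interval inside 2-fold, with 0 called, 0 at an unadjusted p under 0.05 and a median of 0. Of 43 DNA replication genes 39 were inside 2-fold, 5 (11.6%) were higher at an unadjusted p under 0.05 and the median was 0.05. Chaf1a, which loads histones behind the fork, was at 6.73, 8.94 and 7.20 CPM in WT and 20.5, 9.57 and 14.5 CPM in knockout-labelled cells (log2 fold change 0.96, SE 0.30, adjusted p = 0.790, edgeR).

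Interferon-stimulated genes (43 tested, median 0.06) and genes of MHC class I (23, median 0.04) and class II (16, median 0.04) held 0 called genes. Mx1, an antiviral GTPase gene, was at 3.09, 5.48 and 4.83 CPM in WT and 10.2, 10.1 and 9.26 CPM in knockout-labelled cells (log2 fold change 1.14, SE 0.27, adjusted p = 0.564, edgeR). It was the single interferon gene at an unadjusted p under 0.05, and at 8 weeks its log2 fold change was -0.02. Cd74, the class II chaperone, was among the most abundant transcripts at 5942 to 9622 CPM, with overlapping groups (0.21, SE 0.17).

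Of 30 adhesion and homing genes, whose receptors place cells in tissues, 6 (20%) had an unadjusted p under 0.05, 4 higher and 2 lower. In this list 0 were called and the median was 0.03. Its members were chosen with earlier results of these data known, so the share is no test of the list. Ccr9, a gut-homing chemokine receptor gene, was at 16.8, 24.9 and 24.6 CPM in WT and 27.1, 51.2 and 43.2 CPM in knockout-labelled cells (log2 fold change 0.87, SE 0.26). Itgb7, an integrin chain of the same homing route, was at 296, 323 and 306 CPM against 343, 440.8 and 422 CPM (0.38, SE 0.13). The adjusted p was 0.748 for Ccr9 and 0.806 for Itgb7 in edgeR. Itgae, described above and also in this list, had its smallest p and went the other way (-0.84, SE 0.20, adjusted p = 0.612, edgeR). Among 27 receptors and enzymes of neuropeptides, lipid mediators and purines, Nt5e, which encodes the adenosine-producing enzyme CD73, was at 97.7, 113 and 96.8 CPM against 68.9, 67.6 and 69.2 CPM (-0.58, SE 0.11, adjusted p = 0.307, edgeR). Nt5e lies on chromosome 9, as does Ccr9. Calcrl, a subunit of the receptor for the neuropeptide CGRP, was at 76.9, 73.2 and 75.9 CPM against 43.6, 57.9 and 52.0 CPM (-0.56, SE 0.13, adjusted p = 0.586, edgeR). DESeq2 called Nt5e.

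Metabolic lists stayed near zero. Medians were -0.06 for 26 glycolysis genes, -0.03 for 26 sterol synthesis genes, 0.07 for 31 fatty acid genes and -0.004 for 51 nuclear genes of oxidative phosphorylation, all with 0 called, and 48 of these 51 had an interval inside 2-fold. Among 34 antioxidant enzymes Me3 was called, and Cat, which encodes catalase, was at 197, 205 and 187 CPM in WT and 146.7, 137 and 130.5 CPM in knockout-labelled cells (log2 fold change -0.51, SE 0.11, adjusted p = 0.445, edgeR; called by DESeq2). Heat shock proteins had a median of 0.01 over 25 genes, and summed to 5530 to 5901 CPM in WT and 7061 to 7843 CPM in knockout-labelled libraries, a sum that includes the uncertain Hspa8. The unfolded protein response (33 genes, median 0.06) held 0 at an unadjusted p under 0.05.

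Cytosolic ribosomal protein genes had the median farthest from 0, -0.30 over 72 genes, with 66 negative and 0 called. Per library the list's median deviation from the WT mean was -0.13, -0.24 and 0.34 in WT. It was -0.54, -0.28 and 0.04 in knockout-labelled libraries. WT replicate 3, the shallowest library, was the highest and knockout-labelled replicate 1 the lowest, and the groups overlapped. Without WT replicate 3 the median was -0.06, and without knockout-labelled replicate 1 it was -0.16. Rps2, of whose words 47.1% occur in other genes, and Rpl27a were the members at an unadjusted p under 0.05, and they had opposite signs (log2 fold changes 0.71 and -0.39). Splicing factors had 35 of 49 negative values (median -0.06) and histone modifiers 36 of 57 positive values (median 0.08), both with 0 called. The TGF-beta pathway had 19 of 25 negative values, a median of -0.10 and 0 called, with Smurf2, a ligase that removes its receptors, at 28.7, 31.3 and 33.9 CPM against 20.8, 20.4 and 25.4 CPM.

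The median of genes used as T cell markers lay lower in all 3 knockout-labelled libraries, but not every marker did. Over 17 tested members the median log2 fold change was -0.37, with 15 negative and 0 called in edgeR, and 5 (29.4%) lower at an unadjusted p under 0.05. Per library the list's median deviation from the WT mean was 0.09, -0.02 and 0 in WT and -0.33 in each knockout-labelled library. Cd3e was at 3.35, 0.833 and 4.26 CPM in WT and 0.131, 0.0669 and 0.488 CPM in knockout-labelled cells, and Cd3g at 49.02, 50.8 and 53.6 CPM against 32.9, 40.1 and 40.2 CPM. Cd3e (start 44998740) and Cd3g (start 44969572) lie on chromosome 9 beside Thy1. Cd2, an adhesion receptor, was at 44.6, 43.2 and 38.5 CPM against 22.3, 33.4 and 25.9 CPM. Defining T cell markers were low in both groups, with Cd4 at 0.439 to 1.80 CPM and Cd8a at 0.937 to 1.10 CPM. The receptor constant segment Trac was at 2.50, 1.67 and 1.23 CPM in WT and 1.41, 2.41 and 2.34 CPM in knockout-labelled libraries. For Cd4, Cd8a and Trac the groups overlapped. The list summed to 1661 to 1835 CPM in WT and 1397 to 1611 CPM in knockout-labelled libraries, and the part of T cells in these values was not tested.

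Markers of the remaining cell types held 0 called genes, and some had groups that were apart. The 10 tested macrophage and monocyte genes summed to 10.4 to 20.6 CPM in WT and 15.2 to 20.6 CPM in knockout-labelled cells. Cd68 of that list was at 2.94, 2.15 and 2.21 CPM against 3.47, 4.08 and 4.53 CPM, with groups apart. Of 14 dendritic cell genes, Irf8 was higher (4.08, 7.67 and 6.30 CPM against 11.6, 8.23 and 10.6 CPM) and Tcf4 lower (29.6, 24.1 and 27.1 CPM against 17.96, 18.6 and 22.8 CPM) with groups apart, neither past the test (adjusted p = 0.898 and 0.889, edgeR). NK and ILC1 genes had 7 of 8 positive values (median 0.20), with Nkg7 at 293, 322 and 299 CPM against 357, 381 and 350 CPM (groups apart, adjusted p = 0.911, edgeR), while the defining Tbx21 stayed at or below 2.10 CPM. Pecam1 was at 135 to 174.5 CPM and Cpa3, a mast cell protease gene, at 12.9 to 23.8 CPM, and both overlapped.

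Isoform use was tested apart from gene level, as a shift in a transcript's share of its gene's reads. Of 5443 genes with at least 2 kept transcripts, 12 (0.22%) were called, and 88 (1.62%) had an unadjusted p under 0.05. Among them were Ifi203, Sc5d, Triobp, Mgat4a, Terf2, Prkcd, Tbc1d20, Cdk2ap1, Senp8, Colq and Itga4, and 0 of the 12 were called at gene level. In 11 of the 12 the leading transcript was listed at 0 reads in all 3 libraries of 1 genotype, in WT for 6 and in knockout-labelled cells for 5. Transcripts were kept only with at least 10 reads in 3 libraries. One at 0 in a genotype was therefore kept only if all 3 libraries of the other held such reads. The filter itself set the groups apart for these transcripts, and their share over all transcripts tested was not counted. Sailfish divides the reads that transcripts of a gene share by a model, so the number of words that occur in no other transcript of the gene is given beside these shares.

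Itga4, which encodes the integrin chain alpha 4 used in homing, was the exception with reads on both sides. Its non-coding transcript Itga4-202 took 4.18%, 4.11% and 4.96% of the gene's reads in WT and 15.4%, 14.5% and 13.7% in knockout-labelled libraries (difference 10.1 percentage points, adjusted p = 0.0441, diffSpliceDGE in edgeR). The coding transcript Itga4-201 took 72.9%, 77.2% and 70.9% against 69.6%, 68.4% and 68.7%. The gene held 6728 to 13764 reads per library, and 1352 of the 2917 words of Itga4-202 occur in no other transcript of the gene. At 8 weeks its share was 3.33%, 3.91% and 3.05% in WT and 7.00%, 14.7% and 15.9% in knockout-labelled libraries, so the groups were apart in the same direction. Itga4 (79255426 to 79333123) lies on chromosome 2, as does Rag1.

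Sc5d encodes a desaturase of sterol synthesis and lies on chromosome 9 (42251595 to 42264256). The coding transcript Sc5d-202 took 17.7%, 18.3% and 17.2% of reads in knockout-labelled libraries and 0 of 2856 to 6027 reads in WT (adjusted p = 4.29e-06, diffSpliceDGE in edgeR). Its coding part has the same length as that of Sc5d-201, and 78 of its 1658 words are its own. By counting alone, 0 reads allow a share of up to 0.105%, but reads on shared words are divided by the model, so the limit may be higher. At 8 weeks it took 26.5% and 35.9% in 2 knockout-labelled libraries and 0% in the other 4. In Triobp, an actin-binding gene, the intron-retaining transcript Triobp-202 took 31.2%, 28.6% and 33.6% in knockout-labelled libraries and 0 of 171 to 388 reads in WT (adjusted p = 0.000109, diffSpliceDGE in edgeR). At 8 weeks it took 52%, 58.9% and 56.7% in WT and 62.0%, 78.3% and 40.7% in knockout-labelled libraries, with overlapping groups.

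Prkcd encodes a protein kinase C isoform. Prkcd-205 took 9.15%, 23.7% and 7.36% of reads in knockout-labelled libraries and 0 in WT (adjusted p = 0.00622, diffSpliceDGE in edgeR), but 0 of its words are its own. At 8 weeks it took 7.12%, 10.8% and 16.1% in WT and 30.6%, 30.6% and 32.4% in knockout-labelled libraries, apart in the same direction. The isoform test of Prkcd at 8 weeks did not pass (unadjusted p = 0.898, diffSpliceDGE in edgeR). In Ifi203, an interferon-inducible gene, Ifi203-203 took 19.7%, 15.2% and 23.9% in WT and 0 in knockout-labelled libraries (adjusted p = 6.46e-10, diffSpliceDGE in edgeR), and 1 of its 3434 words is its own. Senp8-202 and Senp8-203, of a gene for a protease of the ubiquitin-like NEDD8, had equal estimates in every library. The share of the leading transcript differed in the same direction at 8 weeks in 7 of the 12 genes (58.3%), against 52.9% of 5406 genes tested with reads in every library. The 8-week groups were apart in that direction in 2, Prkcd and Itga4 (16.7%), against 3.35%. Over all genes tested for isoform use at 8 weeks, 0.0196% were called and 1.1% had an unadjusted p under 0.05. Of the 12 genes, 1 had such a p at 8 weeks, Itga4 (0.0284, diffSpliceDGE in edgeR).

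**Figure D5:**
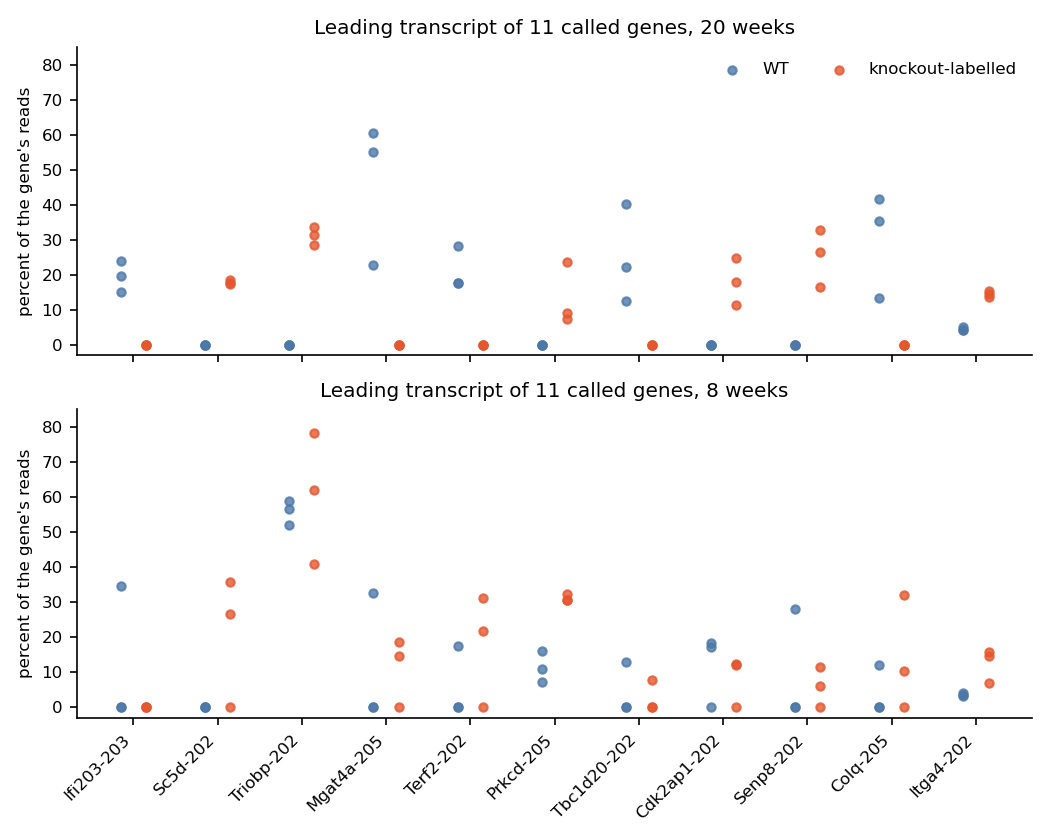
Share of its gene's reads (percent) taken by the leading transcript of 11 of the 12 genes called for isoform use, in each WT (blue) and knockout-labelled (red) library at 20 weeks (top) and 8 weeks (bottom). At 20 weeks 10 of the 11 transcripts shown sit at 0 in 1 genotype, and at 8 weeks only Prkcd-205 and Itga4-202 of those shown keep the groups apart in the same direction.

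The isoform calls also depended on single libraries. Their number was 2 without knockout-labelled replicate 1, 4 without replicate 2 and 5 without replicate 3, and 23, 16 and 8 without WT replicates 1, 2 and 3. Adding the thread number as a covariate gave 193, of which 7 were among the 12.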

How the data were processed

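RNA-seq libraries of sorted ILC2s were deposited as 1 transcript table each. Per the file headers, sailfish 0.6.3 made them from 20-base words on Ensembl 76 transcripts (GRCm38). Other tools appear in the submitters' processing notes (featureCounts 1.4.5, Subread, STAR 2.0.4b and bcl2fastq), which do not name sailfish. The labels call the RNA polyadenylated, while their protocol describes ribosomal RNA removal and random hexamers, so the selection is uncertain. The authors deposited estimated counts (estimated numbers of reads) per transcript, and these were used. The deposited TPM values, per the file headers, entered 1 alternative only (length-scaled counts). No table held other columns of per-sample values (0).

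Of 86127 transcripts, 83739 (97.2%) matched GENCODE M21, and unmatched ones held 1.35% to 1.54% of reads in the 20-week libraries. Counts were summed to 29542 genes, of which 26589 are autosomal, and rounded to whole numbers. The 6 libraries of 20 weeks were fitted alone with edgeR 4.0.16 (R 4.3.3) after filterByExpr and TMM scaling, with the quasi-likelihood test and Benjamini-Hochberg adjustment at 0.05. The biological coefficient of variation was 0.267. Intervals are 95%. Genes at 0 in a group were compared with a floor of 3 counts per library, and floors and counting intervals cover counting error only, since reads without molecular identifiers are not independent molecules. The difference between times came from an interaction over all 12 libraries. Isoform use was tested with diffSpliceDGE and Simes p-values, over transcripts with at least 10 reads in 3 libraries and 5% of their gene's reads. DESeq2 1.42.0 and limma 3.58.1 were alternatives, as were other filters and scalings, a replicate block, the thread number and leaving out each library. Joining genes that share at least 70% of their words was chosen after seeing the data. The tests were checked on simulated data. Values of 3 genes are not reported here.

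Genes were named by rule: a panel of 15 genes (Rag1, Rag2, the CD90 and CD45 genes and ILC2 genes), every called gene, the 15 largest changes at an unadjusted p under 0.01 and a mean of at least 5 CPM, up to 4 members per pathway list and 3 per cell type list with the smallest p plus the list's first marker, and the 15 leading isoform genes. Other markers (such as Cd79a, Cd8a, Trac and Pecam1) and Eif3m were named outside this rule, as markers or as the source of a called copy. The members and lists were chosen with earlier results of these data known. Replicate numbers were shared between genotypes, and the labels do not say whether a number marks the same host. Deviations of same-numbered libraries correlated at 0.077, 0.081 and 0.127. Each WT library correlated best with the knockout-labelled library of its own number (3 of 3). The main fit left the number out, and with it as a block 0 genes were called.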

Additional observations from a re-analysis of the deposited data

Results flagged for a closer look

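The genotype difference changed between the times for 2 of the named genes, by edgeR's test of the interaction, which called 7 of 13831 genes. Hectd4, a gene of the HECT ubiquitin ligase family, was at 1.84, 0.833 and 0.491 CPM in WT and 13.8, 7.20 and 14.9 CPM in knockout-labelled cells at 20 weeks. At 8 weeks it was at 12.6, 18.4 and 17.2 CPM in WT and 6.96, 6.18 and 1.58 CPM in knockout-labelled cells, and the difference between the log2 fold changes was 5.12 (SE 0.78, adjusted p = 0.0478). Capn11, a calpain protease gene, was at 0.478, 0.482 and 0 CPM in WT and 3.44, 7.20 and 4.68 CPM in knockout-labelled cells at 20 weeks. At 8 weeks it was at 39.7, 35.9 and 33.6 CPM in WT and 5.68, 4.01 and 2.60 CPM in knockout-labelled cells, a difference of 6.92 (SE 0.74, adjusted p = 0.0027). In both genes the groups were apart at each time, in opposite directions, and the change lay mostly in the WT libraries, whose levels were lower at 20 weeks.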

How the results depend on the processing

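The number of genes called at 20 weeks (11) was 73 with DESeq2, 17 with genes of all chromosomes, 1 with all 12 libraries in the fit, 27 with the thread number as a covariate and 25 with the libraries of 24 threads alone. Leaving out 1 library gave 0 to 7. Of all calls, 45.5% were higher in knockout-labelled cells, against 29.4% with all chromosomes, 77.8% with the thread covariate and 68% in the libraries of 24 threads. The median size of the log2 fold change (0.18) was 0.296 without a low-count filter, 0.302 with the thread covariate and 0.334 in the libraries of 24 threads. Pathway lists with a median beyond 0.1 numbered 2, against 4 without the filter, 18 with the thread covariate, 22 in the libraries of 24 threads and 3 to 11 with 1 library left out. Isoform calls (12) were 5 at a minimum share of 10%, 45 with no minimum, 4 with limma, 193 with the thread covariate, 3 with all 12 libraries and 2 to 23 with 1 library left out. Interaction calls (7) were 26 with DESeq2 and 5 to 11 with 1 library left out. With near-identical copies joined, Hspa8 turned from 1.04 to -0.0203 on the log2 scale. The causes of these changes were not tested.

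The replicate block pairs libraries of the same number. With it 0 genes were called (862 at an unadjusted p under 0.05, against 720), isoform calls were 4 and interaction calls 2. Each WT library correlated best with the knockout-labelled library of its own number (3 of 3), a hint from the data and not from the design. The block gave the 11 genes adjusted p-values of 0.0583 to 0.224. Each of the 11 was called in 6 to 10 of 17 alternatives, 100 lost calls in all, and values of other named genes gained a call 28 times. Depth limits genes under 1 CPM most, of which 0.414% had an interval inside 2-fold.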
